A study of Mus musculus with 4 samples.

Results

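Ptprc, Ptpn22, Csk and Ptpn6 encode 3 tyrosine phosphatases and 1 kinase that set how strongly a T cell answers its receptor. They were selected by annotated gene symbol, as 4 of the 6137 genes with a single symbol on the arrays, and 6 probe sets read them, of which the A chip holds 5 and the B chip 1. All 4 genes were found by symbol on the A chip, and Csk alone was also found on the B chip. Of the 6595 B chip probe sets, 2001 carry a single symbol and 4567 none. A gene not found by symbol may therefore still be read on that chip.

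The Src family kinase Lck starts T cell receptor signalling, and its activity depends on which of its tyrosines carry phosphate. Csk phosphorylates the inhibitory tyrosine in the tail of Lck and so holds it inactive, whereas Ptprc, the transmembrane phosphatase CD45, removes that phosphate. Ptpn22, a cytoplasmic phosphatase also known as PEP that binds Csk, takes the phosphate off the activating tyrosine, and Ptpn6, the phosphatase SHP-1, is brought to inhibitory receptors and dephosphorylates kinases near the receptor. All 4 genes are also active in other blood cells, among them macrophages and B cells.

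The memory preparation started from splenocytes of RAG1-deficient B6.2.16 females, which carry a transgenic T cell receptor for the male HY antigen. These cells were exposed to HY peptide in culture for 4 days, given to female RAG1-deficient hosts, and taken back 200 days later from spleen and lymph nodes with magnetic beads, at a stated purity above 80%. The naive preparation was lymph node CD8 T cells of RAG1-deficient females of the same transgenic line, at a stated purity above 85%. Lack of RAG1, which every donor and host shared, stops animals from making T and B cells with receptors of their own, while macrophages, granulocytes and natural killer cells still form. The sources used here do not state how many animals were used, their age or any pooling. Tissue, culture, transfer and sorting differed between the preparations together with the memory and naive labels, so they cannot be told apart.

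Each preparation was read on 1 A array and 1 B array, so no spread between samples can be given, and precision is limited by this number of arrays. Differences are therefore given by size, with no test, and each describes 1 pair of arrays. Intensities are in array units, and a noise limit was taken from the negative values, at 184 on the memory A array and 423 on the B chip. Memory and naive values followed each other across the 6540 gene probe sets of the B chip (Spearman correlation 0.85) but hardly across the 6529 of the A chip (0.10). The 55 control probe sets that both chips carry correlated at 0.96 between the memory A and memory B arrays and at 0.21 between the naive A and naive B arrays. The points of these correlations are probe sets of the same arrays, not independent samples. Since the naive A values did not follow their probe sets, the A chip is described in memory only, and memory is compared with naive on the B chip only.

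All 4 genes were detected in the memory preparation. Each had a probe set above the noise limit of the memory A array and also above a stricter level of 2 times that limit. Of all 4775 genes with a single symbol on that array, 29.5% were above the limit and 15.1% reached 2 times the limit. The genes were chosen for their known roles, so their count is a description and no test of the group was made.

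Ptprc, the activating phosphatase, read 1204 on the memory A array, 6.54 times the noise limit. Of the 6529 gene probe sets on that array, 97.2% read lower and 183 read higher. The annotation gives this probe set the gene symbol only, so the value does not tell the CD45 splice forms apart, which differ between naive and antigen-experienced T cells. Its symbol is not on the B chip, so memory and naive levels of it are not compared here.

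Csk, the kinase that opposes Ptprc, was read by 2 probe sets on the memory A array, and these differed. The brighter probe set read 977, 5.31 times the limit, with 95.9% of probe sets lower. The other belongs to the sequence-family class, with probes that can match more than 1 related gene, and read 217, only 1.18 times the limit, with 77.0% of probe sets lower. Csk therefore reached 2 times the limit by the brighter probe set alone, and the mean of both was 597, which also lies above that level.

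Ptpn22, the phosphatase partner of Csk, read 1005 on the memory A array, 5.46 times the noise limit, and 96.2% of probe sets read lower. Ptpn6, the SHP-1 phosphatase, read 858, 4.66 times the limit, and 326 of the 6529 probe sets read higher. Neither gene was found by symbol on the B chip. Probe sets differ in how brightly they bind the same amount of RNA, so the 4 values do not order the transcripts by abundance. They show that the brightest probe set annotated to each gene gave signal. Each of these carries the class letter s, and whether its probes also match other transcripts was not analysed.

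**Figure D1:**
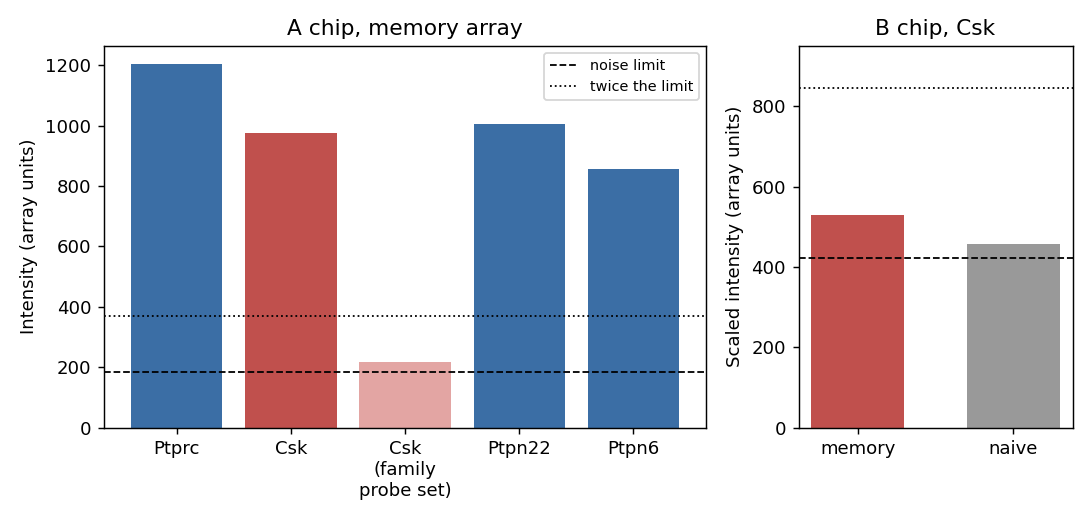
Bars on the left show the intensity, in array units, of each probe set for the 4 genes on the memory A array, with a dashed line at the noise limit of 184 and a dotted line at 2 times that limit. Bars on the right show the scaled intensity of Csk on the memory and naive B arrays (1 array each, so no error bars), 530 and 457, between the dashed noise limit of 423 and the dotted level of 846 that a called difference requires.

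Csk was the single gene of the 4 that could be compared between the preparations. Its B chip probe set, again of the sequence-family class, read 534 in memory and 454 in naive as deposited. After both arrays were brought to the same trimmed mean the values were 530 in memory and 457 in naive, which is 1.25 and 1.08 times the noise limit of 423. The log2 ratio was 0.21, a 1.16-fold difference, and the 72.6 units between the arrays were fewer than the noise limit itself. Both arrays thus showed Csk just above noise at similar values.

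A difference was called only at 2-fold or more with the brighter array at 846 or above, and no Csk value came near that brightness. A 2-fold difference in Csk could therefore not have been called at these signals, and the small ratio does not show equal levels. The same held for 213 of the 462 measured genes of the B chip, those with a single symbol and at least 1 array above the limit. Among the 462, 41 were higher in memory (8.87%) and 40 lower (8.66%), and the median log2 ratio was -0.12. Of the 316 genes above the limit on both arrays, those with ratios closest to that of Csk, by absolute difference over this 1 pair of arrays, were Itgb2 (log2 ratio 0.21), Gnas (0.22) and Rbm14 (0.21).

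Genes that act around the 4 phosphatase and kinase genes were followed in 6 lists. The lists held 161 symbols, among them Cbp and Hpk1, which are other names of the listed Pag1 and Map4k1. Of these symbols, 93 were found. By symbol 40 of them were found on the B chip, and 22 of 40 were measured. Of these, 2 were higher in memory, 2 lower and 18 neither, with a median log2 ratio of -0.23. In memory on the A chip 26 of 61 list genes were above the limit and 15 reached 2 times the limit. Of all genes on that array, 29.5% and 15.1% did so. The shares called on the B chip, beside 8.87% and 8.66% of all measured genes, rest on 4 genes.

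**Figure D2:**
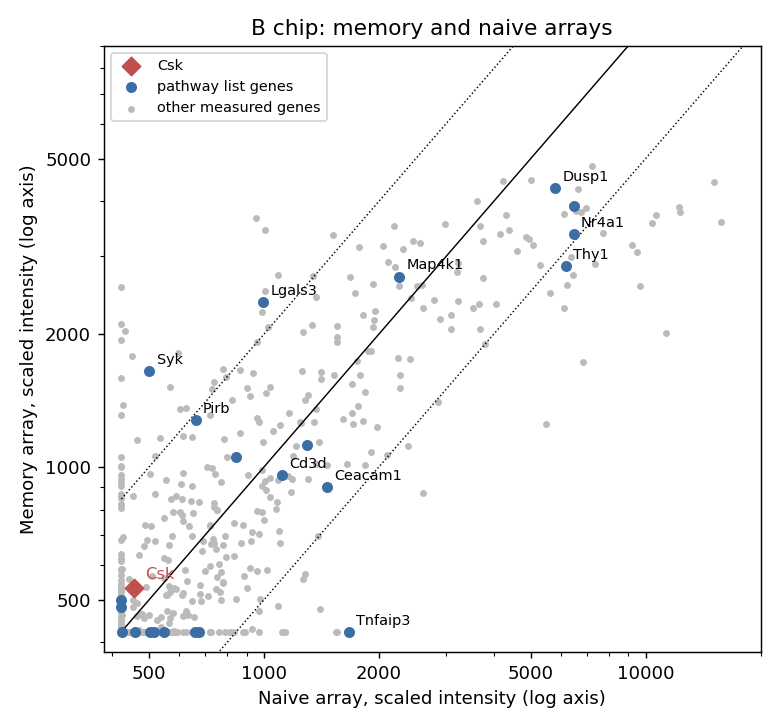
Each point is a gene measured on the B chip, with its scaled intensity on the memory array upward and on the naive array across, both on log axes, and values under the noise limit of 423 drawn at it. The solid line marks equal values and the dotted lines a 2-fold difference, and Csk, at 530 in memory and 457 in naive, sits in the dim corner, while Syk and Lgals3 lie above the upper dotted line and Thy1 and Tnfaip3 below the lower one.

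Of 16 symbols listed for Src family kinases and proteins that recruit Csk or these kinases, 10 had a probe set. The 16 include Cbp, another name of Pag1. Lck and Lyn have no probe set with their symbol here, so the substrate that the 4 genes act on most directly in T cells was not analysed. Fyn, the other Src kinase of T cells, read 353 on the memory A array, and Pstpip1, an adaptor that ties a phosphatase to the cytoskeleton, read 365, both above the limit of 184. Pag1, the membrane adaptor that holds Csk near Lck, was not above the limit, and neither were Blk and Dok1. On the B chip Fgr, a Src kinase of myeloid cells, read 1055 in memory and 843 in naive, a log2 ratio of 0.32. Ptpn12, a cytoplasmic phosphatase related to Ptpn22, read 299 in memory, under the limit, and 676 in naive, so its log2 ratio of -0.68 is only a bound.

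On the memory A array 5 of 19 genes in the list of other phosphatases were above the limit, a share close to the 29.5% of all genes. Both counts include Ptprcap, which is not itself a phosphatase. The brightest was Ptpn1, a phosphatase of the endoplasmic reticulum, at 1341. The MAP kinase phosphatase Dusp6 read 538, Ptprcap, the small membrane protein that associates with CD45, read 402, and the lipid phosphatase Inpp5d, known as SHIP-1, read 236. Ptpn2, Ptpn9, Ptpn11, Ptpn14, Ptpn18, Ptpn21, Ptpra, Ptpre, Ptprf, Ptprj, Ptprk, Ptpro, Ptprs and Acp1 were not above the limit. Ptpn11, which encodes SHP-2, a close relative of SHP-1, gave 15, so its transcript was not detectable by that probe set while that of SHP-1 was.

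On the B chip 3 phosphatase genes were measured and none was called in either direction. Dusp1, a MAP kinase phosphatase induced by stress, read 4287 in memory and 5786 in naive, for a log2 ratio of -0.43. Quantile normalization gave 1.03, past 2-fold the other way, and intensity-dependent normalization gave 0.73. Ptpn13 read 311 in memory, under the limit, and 458 in naive. The direction of Dusp1 therefore depended on the scaling, and the Ptpn13 ratio is only a bound.

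The receptor and coreceptor chains showed 1 of 4 measured genes lower in memory on the B chip. This was Thy1, a surface protein of mouse T cells, at 2848 in memory and 6184 in naive (log2 ratio -1.12). The call was lost with median-ratio scaling (-0.97), quantile (-0.34) and intensity-dependent normalization (-0.15), and at a 3-fold threshold. Cd3d, a signalling chain, had a log2 ratio of -0.22, and Cd8a and Cd3g had a value under the limit on 1 array, with bounds of 0.24 and -0.25. All 4 chains with an A chip probe set were above the limit in memory, beside 29.5% of all genes on that array. Fcer1g, a signalling chain of Fc receptors, read 2267, Cd3e 317, Cd247 240 and the costimulatory receptor Cd28 186, which is at the limit. The B chip probe set of Cd247 was under the limit of that chip on both arrays, at 168 in memory and 223 in naive.

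Among the kinases and adaptors after the receptor, 1 of 3 measured genes was called on the B chip, and it was higher in memory. Syk, the relative of Zap70 that serves B cell and Fc receptors, read 1650 in memory and 501 in naive, a 3.29-fold difference (log2 ratio 1.72). The call held with no scaling (1.74), median-ratio scaling (1.87), quantile (1.78) and intensity-dependent normalization (1.73), and at a 3-fold threshold. It was lost with the noise limit doubled, where the ratio was 0.96. The other settings that gave a value could not change the call. Zap70, the kinase that T cells use, read 221 in memory, under the limit, and 424 in naive, at the limit, so no ratio could be read. Ppp3cb, a calcineurin subunit, read 336 in memory, under the limit, and 659 in naive, for a bound of -0.64. Another Ppp3cb probe set on the B chip was under the limit on both arrays, at 25.8 in memory and -70.5 in naive.

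In memory, 10 of 19 of these genes were above the limit of the A array, beside 29.5% of all genes. The adaptor Fyb read 1655 and Grb2, the adaptor that links receptors to Ras, read 782. The adaptor Skap2 read 646 and Vav1, a guanine nucleotide exchange factor, read 463. Fyb and Vav1 each had a second probe set above the limit, at 429 and 196. Plcg2, Vav2, Shc1, Prkcq, Map2k1, Ppp3cb, Pik3r1, Was and Cd6 were not above it. The B chip probe set of Vav1 was under the limit of that chip on both arrays, at 316 in memory and 252 in naive.

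Several inhibitory receptors dock SHP-1, and 2 of the 7 with a probe set were above the limit on the memory A array. This share is close to the 29.5% of all genes. Sirpa, a receptor of myeloid cells, read 1218 and Lilrb4a, found on myeloid and activated lymphoid cells, read 987. Cd5, the SHP-1-binding receptor of T cells, gave 110 and was not above the limit, nor were Cd22, Cd72, Pecam1 and Klra3. On the B chip none of the 5 measured genes of this list was called. Pirb, an inhibitory receptor of myeloid and B cells, came closest at 1276 in memory and 662 in naive (log2 ratio 0.95). Its ratio passed 2-fold with median-ratio scaling (1.10) and fell to 0.59 with the noise limit doubled.

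Ceacam1, an adhesion molecule with inhibitory tyrosine motifs, read 899 in memory and 1465 in naive, a log2 ratio of -0.70. Klra4 and Klra8, which the same list held, are activating and not inhibitory receptors of natural killer cells. They were under the limit in memory, with bounds of -0.37 and -0.29. Both probe sets are of the sequence-family class. Ctla4 read 480 in memory and 378 in naive, the naive value under the limit.

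Of 6 measured genes among the other brakes on receptor signalling, 1 was called higher in memory and 1 lower. Lgals3, a galactose-binding lectin, was 2.38-fold higher, at 2366 in memory and 995 in naive, and its probe set is of the sequence-family class, so no value is left without that class. Its call was also lost at a 3-fold threshold. A pair of other Lgals3 probe sets on the memory A array were not above the limit, the brighter at 61. Tnfaip3, which restrains NF-kappaB, was lower by at least 3.94-fold, at 404 in memory, under the limit, and 1665 in naive. Its call was lost with the noise limit doubled (-0.98).

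Nr4a1, an immediate early gene of receptor signalling, read 3376 in memory and 6474 in naive (log2 ratio -0.94), and Nfkbia, the NF-kappaB inhibitor, read 3904 in memory and 6482 in naive (-0.73). Neither was called, and both signs turned: quantile normalization gave 0.046 for Nr4a1 and 0.68 for Nfkbia, and the intensity-dependent method gave 0.15 and 0.44. On the A chip in memory, Rgs2, a regulator of G protein signalling, read 1295, Socs3 672 and Lgals9 428. Nedd4, Cish, Socs1, Dok1 and Lgals3 were not above the limit.

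**Figure D3:**
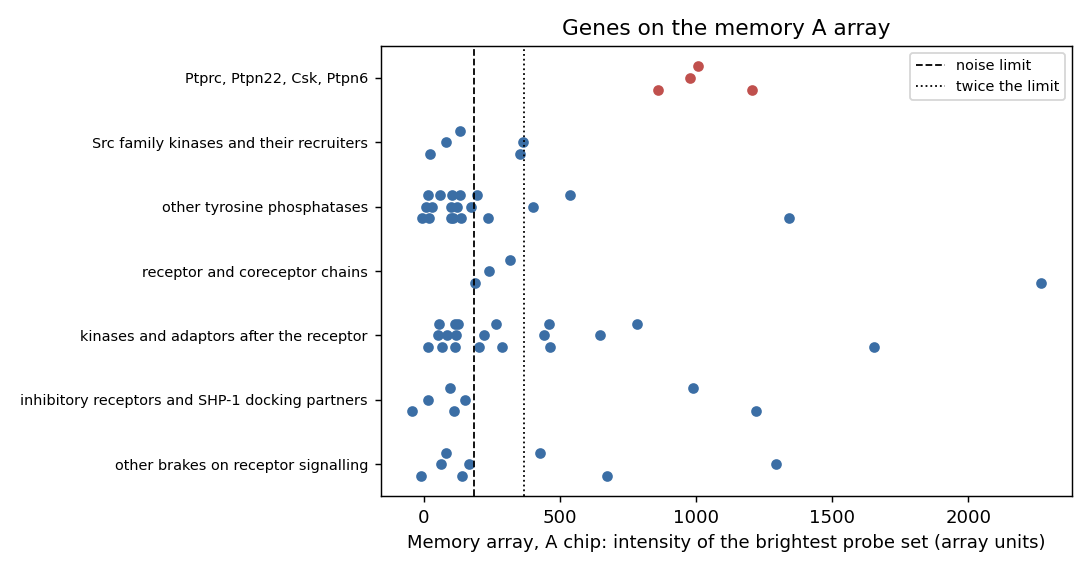
Each point is the brightest probe set of a gene on the memory A array, in array units, with the 4 phosphatase and kinase genes in the top row and the 6 lists below, the dashed line at the noise limit of 184 and the dotted line at 2 times that limit. The 4 genes lie between 858 and 1204, while 26 of 61 list genes are above the limit and the brightest is Fcer1g at 2267. Of all genes on that array 29.5% are above the limit.

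Markers of other blood cells were present beside these values. On the memory A array 7 of 10 macrophage markers were above the limit, with a summed level of 10738. The brightest were Ctss at 2409, Hmox1 at 2228 and Lyz2 at 2007. Mpeg1 read 96 there, under the limit, but 3665 in memory on the B chip. Marco, at 103, and Fcgr1, at 113, were also not above the limit of the memory A array. Of the granulocyte markers 3 of 4 were above it, with a sum of 6529 units, against 2 of 4 T cell markers with a sum of 682. Of the B cell markers 2 of 7 were above it, Ms4a1 at 301 and Ighm at 297, while Cd22 was below zero and Cd79b read 61. Of the natural killer cell markers Fcer1g was above it and Klrb1c, at 18, was not. The erythroid list held 1 gene, Slc4a1, above the limit. Of the dendritic cell markers 2 of 4 were above it, H2-Aa at 3232 and Ccr7 at 505. Zbtb46, at 121, and Flt3, at 68, were not. Of all genes on that array 29.5% were above the limit. Sums over different probe sets do not give cell shares.

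On the B chip, beside the Csk and Syk values, macrophage markers were above the limit for 11 of 11 genes in memory and 10 of 11 in naive, with sums of 28398 in memory and 16409 in naive. T cell markers were above it for 3 of 7 genes in memory and 4 of 7 in naive, with sums of 5186 in memory and 8953 in naive. Thy1 carried most of that gap, and without it the sums were 2339 in memory and 2769 in naive. Granulocyte sums were 9929 in memory and 10713 in naive, dendritic cell sums 10830 in memory and 16281 in naive, and erythroid sums 7397 in memory and 18706 in naive. Without Cd74 the dendritic cell sums were 7762 in memory and 6775 in naive. Without Hba-a1 and Hbb-b2 the erythroid sums were 3100 in memory and 1305 in naive. The direction of both thus rested on these genes. The dendritic cell marker Flt3 was under the limit on both arrays, at 13.9 in memory and -22.2 in naive. B cell sums were 1045 in memory and 1918 in naive, from Ighm almost alone, with Cd79a, Pax5 and Cr2 near zero on both arrays. Natural killer cell sums were 381 in memory and 1064 in naive. They rested on Klra4 and Klra8 alone, read by sequence-family probe sets and both under the limit in memory. Their part in the levels of Ptprc, Ptpn22, Csk and Ptpn6, and in the Syk difference, was not tested. In such bulk RNA, more cells of a type and more RNA per cell cannot be told apart.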

How the data were processed

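Total RNA was isolated with Trizol and hybridised as cRNA to a pair of Affymetrix mouse chips, per the labels' protocols. The deposited intensity values are whole numbers, partly negative, and the sources used here do not say how the authors computed or scaled them. Symbols are those of the platform annotation, and for all 6 probe sets of the 4 genes the Entrez number gave the same symbol in RefSeq (GRCm38.p6). Control probe sets were left out. The B arrays were scaled to a common 2% trimmed mean (factors 0.993 and 1.01), and the memory A array was used as deposited. The noise limit is the 95th percentile of the sizes of negative values, from the noisier array on the B chip, and lower values were set to it before log2 ratios of memory to naive were taken. The brightest probe set stood for its gene. The procedure was tested on simulated data (Python 3.11.15, numpy 2.4.6, pandas 2.3.3, statsmodels 0.14.6). Changes larger than 2-fold were planted, in bright probe sets only and with less noise than the noise limit implies. That test therefore does not cover 2-fold differences, or signals as dim as those of Csk on the B chip.

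Genes, lists and settings were chosen with earlier results of these data known. From each list the text names genes called on the B chip, up to 4 measured genes with the largest ratios there, up to 4 of the brightest on the memory A array, and those not above the limit on it. Other single genes were named after their values were seen. Alternatives covered scaling, noise limit, size threshold, probe set class and the summary per gene.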

Additional observations from a re-analysis of the deposited data

How the results depend on the processing

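The log2 ratio of Csk on the B chip, 0.21 as reported, was 0.36 with median-ratio scaling, 0.32 with quantile and 0.32 with intensity-dependent (lowess) normalization. These scalings act on all genes: the median of all measured genes, -0.12 as reported, was -0.0048 with median-ratio scaling. The ratio could not be given with the noise limit doubled, since both Csk values were then under it, nor without class-letter or sequence-family probe sets, which leave out its probe set. On the memory A array all 4 genes stayed above the limit and above 2 times the limit with it halved, doubled or set at the 99th percentile, with the mean of all probe sets, and without sequence-family probe sets. No probe set of the 4 genes lacks a class letter, so that setting gave no value. Leaving out sequence-family probe sets alone, and the Csk ratio with no noise limit applied, were chosen after the data were seen.

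Of the list genes, 26 were above the limit on the memory A array, and 44 were with it halved, 15 with it doubled, 17 at the 99th percentile and 5 with only probe sets that carry no class letter, which leave 10 genes. The B chip count of 2 higher became 3 with median-ratio scaling, with quantile normalization and at 1.5-fold. It became 1 with the limit doubled, at 3-fold and without sequence-family probe sets, and 0 without class-letter probe sets. The count of 2 lower became 1 with median-ratio, quantile or lowess scaling, with the limit doubled, at 3-fold, with genes above the limit on both arrays, and without class-letter probe sets. It became 4 with the limit halved and 5 at 1.5-fold. The list median of -0.23 became -0.045 with lowess and -1.35 without class-letter probe sets, where 2 genes were measured. Apart from the smaller number of genes or the changed threshold in these settings, the cause was not tested. No array could be left out, since each group had 1 per chip. No paired analysis was possible because the arrays carry no replicate numbers and no group has more than 1 array on a chip.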
